A study of Mus musculus with 10 samples.

Results

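The 10 genes Egfr, Erbb2, Erbb3, Erbb4, Fgfr1, Fgfr2, Met, Ret, Pdgfra and Kit encode receptor tyrosine kinases that relay growth factors to the kinase ERK, and they were taken by symbol from the 33212 genes of the count table. They were measured by sequencing of polyadenylated RNA from αTC1 cells treated for 48 h with 10 μM enzalutamide, an antiandrogen, in 5 libraries, against αTC1 cells given DMSO, its solvent, for 48 h in 5 libraries. αTC1 is a mouse line of the glucagon-secreting α cell, derived from a tumour that viral large T antigen caused in transgenic mice under a glucagon gene promoter. Both groups shared a medium with 1 g/L glucose and 10% fetal bovine serum, itself a source of growth factors. By the labels the libraries are biological replicates, and whether the cultures were separate is not stated, so every p measures the spread between these libraries only.

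A receptor tyrosine kinase binds its ligand outside the cell, pairs with a second receptor and phosphorylates tyrosines that recruit adaptor proteins. The adaptors load Ras with GTP, which starts a relay of kinases that ends in ERK, and ERK in turn induces transcription of its own inhibitors. In islets such receptors are best known for growth and survival signals, with neuregulins acting on ErbB receptors, stem cell factor on KIT and platelet-derived growth factor on PDGF receptors.

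Library totals lay between 59557697 and 68603842 counts, with no difference between the groups larger than their spread (exact two-sided permutation test, p = 0.262, n = 5 each). Of 10 α cell markers 9 reached 1 CPM (counts per 1000000 of the scaled library total), with Gc at 0. Their sum was lower with the drug, between 11521 and 12821 CPM in enzalutamide and between 19486 and 20729 CPM in DMSO. The most abundant markers weigh most in such a sum, so it does not show that each marker fell. The part of this shift in the receptor results was not tested. Whereas 2 of 8 β cell markers and 1 of 4 δ and PP cell markers reached 1 CPM, the β cell genes Ins1 and Pdx1 and the hormone genes Sst and Ppy had 0 counts in every library. The δ and PP cell markers still summed to between 1225 and 1463 CPM in enzalutamide and between 1173 and 1280 CPM in DMSO, carried by Rbp4, the gene of a retinol carrier. The β cell markers summed to between 45.8 and 49.5 CPM in enzalutamide and between 44.3 and 49 CPM in DMSO. A count of 0 allowed up to 3 counts by counting error alone, which is between 0.0439 and 0.0497 CPM. In this table, however, genes that averaged 4 to 6 counts had a 0 in 29.2% of enzalutamide values and 30.6% of DMSO values, where counting error at the same means gives 0.867% and 0.888%. A 0 for a weak receptor is therefore reported as a listed value, not as absence.

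αTC1 cells expressed 4 of the 10 receptors, namely Erbb3, Kit, Pdgfra and Fgfr2, at a mean of at least 1 CPM in a group. Fgfr1 was low, Erbb2, Erbb4, Met and Ret appeared as traces in some libraries, and Egfr had 0 counts in all 10. The same 4 receptors were counted as expressed at 0.5 CPM and at 2 CPM. Per kilobase of exon, the scale on which genes can be compared, Erbb3 stood highest at 6.52 ± 0.453 CPM per kilobase in enzalutamide and 5.59 ± 0.324 in DMSO (SD, n = 5 each). Kit followed at 1.46 ± 0.113 CPM per kilobase in enzalutamide and 2.02 ± 0.279 in DMSO. Next came Pdgfra, with 0.773 ± 0.0493 CPM per kilobase in enzalutamide and 0.597 ± 0.0359 in DMSO, and Fgfr2, with 0.569 ± 0.0488 and 0.530 ± 0.0482 in the same order of groups. The order was the same in both groups, but in DMSO the values of Pdgfra and Fgfr2 overlapped. None of these levels was high for the line: averaged over the 10 libraries, Erbb3 exceeded 49.8% of the 13985 tested genes with a known exon length, Kit 28.6%, Pdgfra 19.4% and Fgfr2 17.6%.

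**Figure D1:**
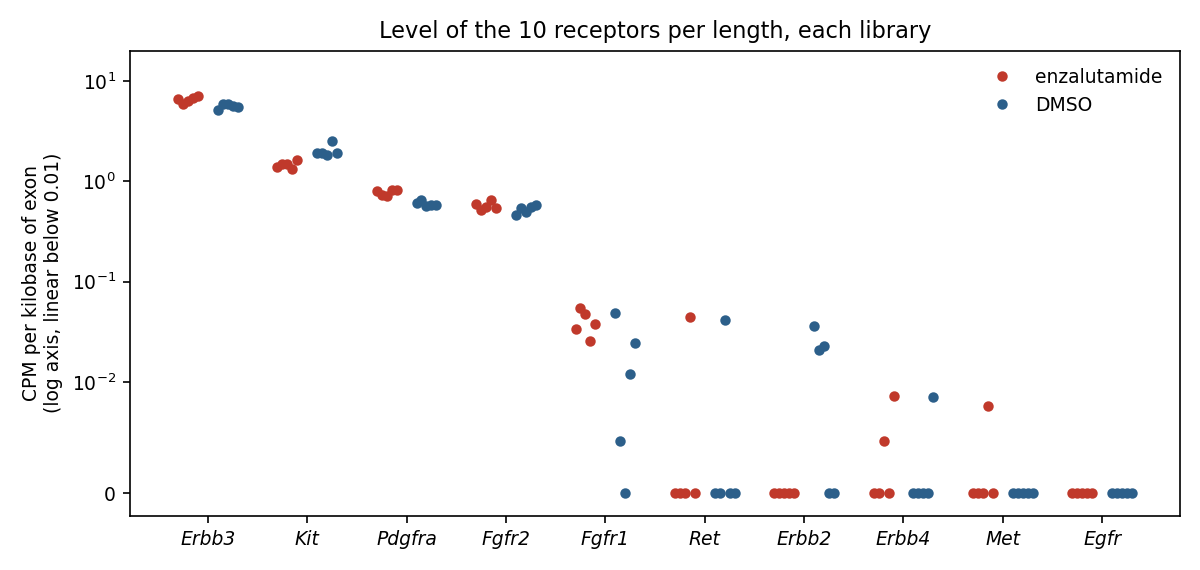
Level of each receptor in CPM per kilobase of exon (log axis, linear below 0.01), one point per library, enzalutamide left and DMSO right within each gene. Erbb3, Kit, Pdgfra and Fgfr2 lie above all values of the other 6 receptors, and Egfr lies at 0 in every library.

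Enzalutamide-treated cells had more Pdgfra and Erbb3 mRNA and less Kit mRNA than DMSO-treated cells. The changes were small, 1.29-fold higher for Pdgfra, 1.17-fold higher for Erbb3 and 1.38-fold lower for Kit. Of the 10 receptors 5 had enough counts to test, and edgeR's quasi-likelihood test, with p adjusted over all 14156 genes tested by the Benjamini-Hochberg method, called 2 higher and 1 lower at an adjusted p under 0.05. The same test called 37.8% of all genes tested, 19% higher and 18.8% lower, so 3 calls among 5 tested receptors are read one by one and not as a property of receptors. Calls were split evenly over all genes, with 50.3% higher, but with libraries scaled to total counts alone 60.7% were higher. The direction and the call of Pdgfra, Erbb3 and Kit held in all 19 alternative analyses, total-count scaling among them. Because the RNA is from bulk cultures, fewer cells of a kind and less RNA per cell cannot be told apart.

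**Figure D2:**
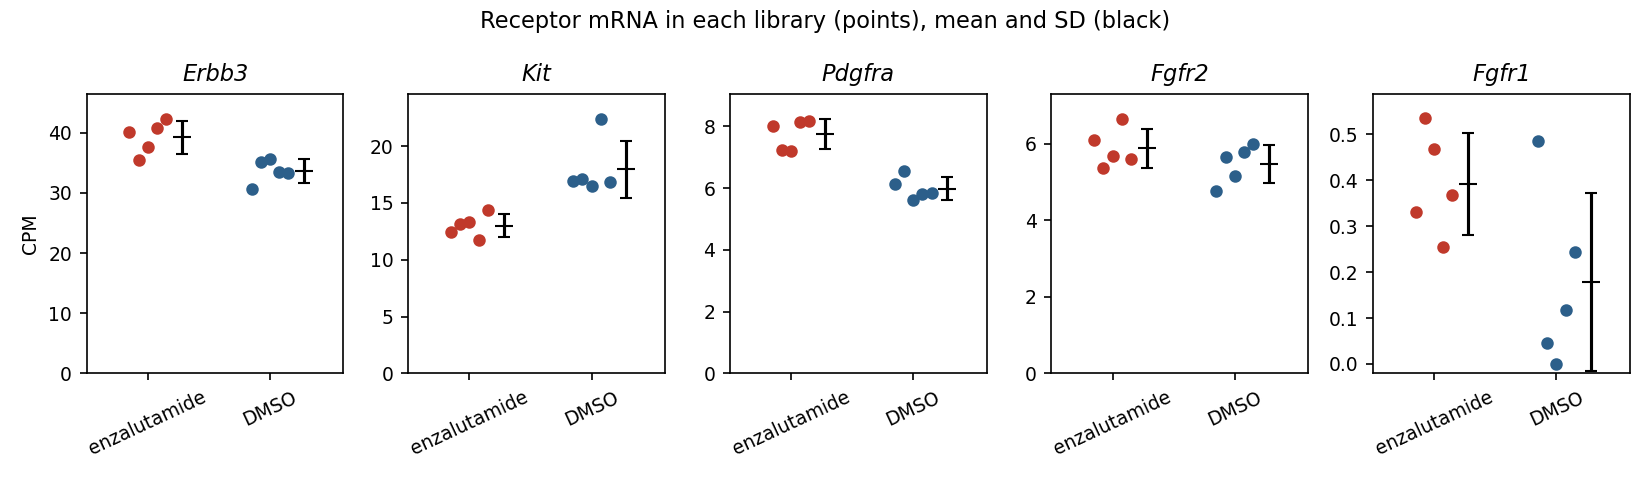
CPM of the 5 tested receptors in each library (points), with the mean and SD of each group in black, enzalutamide left and DMSO right; each panel has its own axis. Kit and Pdgfra do not overlap between groups, and 1 DMSO library stands above the others for Kit.

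Erbb3 encodes the neuregulin receptor of the ErbB family with very weak kinase activity, which signals through a partner such as ERBB2. Its mRNA (chromosome 10, 128567523 to 128589652 of GRCm38/mm10) was at 40.1, 35.5, 37.5, 40.8 and 42.3 CPM in the enzalutamide libraries, against 30.6, 35.1, 35.6, 33.5 and 33.3 CPM in the DMSO libraries. The groups touched, since the lowest enzalutamide value lay just under the highest DMSO value. The log2 fold change was 0.22 (SE 0.0556, 95% interval 0.11 to 0.33, edgeR adjusted p = 0.00409), and no left-out library or other method ended the call (adjusted p between 0.000922 and 0.016).

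The receptors that ERBB3 can pair with had few counts or none. Erbb2, the ErbB member with no known ligand of its own, had 0 counts in all 5 enzalutamide libraries and 12, 7, 8, 0 and 0 counts in the DMSO libraries. As a 0 at such low counts is only a listed value in this table, no fold is given. Erbb2 had too few counts for the test, and without a filter on low counts its edgeR adjusted p was 0.0546. Erbb4, a neuregulin receptor with an active kinase, totalled 11 counts in enzalutamide and 7 in DMSO, from 2 libraries and 1 library. Egfr, the receptor for epidermal growth factor (EGF), totalled 0 counts in both groups. Met, the receptor of hepatocyte growth factor and a further known partner of ERBB3 in cancer cells, totalled 4 counts in enzalutamide, all in 1 library, and 0 in DMSO.

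Kit, the receptor of stem cell factor, and Pdgfra, the receptor of platelet-derived growth factor A, are neighbours on chromosome 5 and moved in opposite directions. Pdgfra spans 75152292 to 75198215 and Kit 75574916 to 75656722 of GRCm38/mm10, on the same strand, with 376701 bases and 0 annotated protein-coding genes between them. Their RefSeq promoter windows on GRCm38.p6 (250 bases before to 50 after the start, both on the plus strand, chr5:75152001-75152300 for Pdgfra and chr5:75574737-75575036 for Kit) are shown because these 2 adjacent receptors changed oppositely. Capitals mark the only match to any motif searched.
Pdgfra: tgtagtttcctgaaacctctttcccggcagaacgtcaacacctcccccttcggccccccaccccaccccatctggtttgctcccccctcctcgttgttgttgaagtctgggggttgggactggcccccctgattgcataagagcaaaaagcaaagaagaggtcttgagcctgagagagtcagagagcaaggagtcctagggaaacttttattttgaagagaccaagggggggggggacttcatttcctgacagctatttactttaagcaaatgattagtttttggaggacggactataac
Kit: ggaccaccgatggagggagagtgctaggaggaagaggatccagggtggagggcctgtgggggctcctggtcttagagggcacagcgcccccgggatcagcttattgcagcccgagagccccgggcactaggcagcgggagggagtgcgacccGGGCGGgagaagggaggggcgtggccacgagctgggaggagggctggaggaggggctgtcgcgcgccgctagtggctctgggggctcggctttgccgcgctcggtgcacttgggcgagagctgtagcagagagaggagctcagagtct
The Kit window had 69% G and C, above 89.3% of all promoter windows, and the Pdgfra window had 51%, above 43.8%. Searched on both strands were GGGCGG, the GC box, TATAAA, the TATA box, TGACGTCA, the cAMP response element, TGANTCA, the AP-1 site, CCGGAAG, an ETS site, and the E-boxes CACGTG and CATGTG. None overlapped another at the match. The GC box was found 1 time in the Kit window and in 35.6% of 27025 promoter windows, and no motif was found in the Pdgfra window. The absence of these letters says nothing about whether such factors act on either gene.

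Kit mRNA was at 12.4, 13.1, 13.4, 11.7 and 14.4 CPM in the enzalutamide libraries, against 17, 17.1, 16.5, 22.4 and 16.9 CPM in the DMSO libraries. Every enzalutamide value lay under every DMSO value, and DMSO library 4 stood well above the other DMSO libraries. The log2 fold change of Kit was -0.47 (SE 0.0856, 95% interval -0.63 to -0.30, edgeR adjusted p = 0.00033), and without DMSO library 4 it was -0.37 (SE 0.0678, adjusted p = 0.000463). Pdgfra mRNA was at 8.01, 7.23, 7.19, 8.13 and 8.18 CPM in the enzalutamide libraries, against 6.13, 6.54, 5.62, 5.82 and 5.83 CPM in the DMSO libraries. Here every enzalutamide value lay above every DMSO value. The log2 fold change of Pdgfra was 0.37 (SE 0.085, 95% interval 0.21 to 0.54, edgeR adjusted p = 0.00212). The groups did not overlap for 26.8% of all genes tested.

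The ratio of Kit to Pdgfra counts within a library, which does not depend on library scaling, was between 1.44 and 1.86 in enzalutamide and between 2.61 and 3.85 in DMSO. Since Kit lay lower and Pdgfra higher in every enzalutamide library, the ratio had to separate the groups and is not a separate result. Within 1 Mb of the pair (1000000 bases on either side), 14 genes were tested, Pdgfra and Kit among them. The only other called gene was Scfd2, a vesicle transport gene (log2 fold change -0.15, SE 0.0457, edgeR adjusted p = 0.0171), which was named after its value was seen. Over all genes tested, 37.8% were called. Kdr, the vascular receptor gene that follows Kit, was not tested and averaged 0.0357 CPM in enzalutamide and 0 in DMSO.

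Pdgfra is a known marker of mesenchymal cells and Kit of mast cells, so markers of such cells were read beside them. The 7 mesenchymal markers summed to between 0.135 and 1.9 CPM in enzalutamide and between 0.947 and 1.67 CPM in DMSO, with Lum at 0, and 1 of the 7 reached 1 CPM in a group. The 8 blood and mast cell markers summed to between 0.461 and 1.3 CPM in enzalutamide and between 2.05 and 3.28 CPM in DMSO, so they were lower together with Kit. Cd14, a monocyte gene, made up most of that sum, at 0.901 ± 0.363 CPM in enzalutamide and 2.25 ± 0.561 CPM in DMSO (SD, n = 5 each), and its part in the Kit result was not tested. In contrast, the mast cell genes Cpa3, Cma1, Mcpt4, Fcer1a and Tpsb2 and the pan-leukocyte gene Ptprc were at 0 in every library. Endothelial markers summed to between 0.695 and 1.81 CPM in enzalutamide and between 0.766 and 1.09 CPM in DMSO, with Cdh5 at 0. Sums for exocrine markers were 14.7 to 18.3 CPM in enzalutamide and 16.9 to 19.3 CPM in DMSO. Of the 6 exocrine markers measured 2 reached 1 CPM in a group, and Prss2, Krt19 and Cftr were at 0. Sums for Schwann cell markers were 4.48 to 6.41 CPM in enzalutamide and 4.92 to 5.98 CPM in DMSO. Of these 5 markers 2 reached 1 CPM in a group, and Sox10 was at 0.

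Fgfr2, a receptor for fibroblast growth factors (FGFs), was at 6.09, 5.36, 5.68, 6.65 and 5.61 CPM in the enzalutamide libraries, against 4.77, 5.65, 5.16, 5.77 and 6 CPM in the DMSO libraries. The groups overlapped, and the log2 fold change of 0.10 did not pass (SE 0.0997, 95% interval -0.09 to 0.30, edgeR adjusted p = 0.458).

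Fgfr1, the FGF receptor that most often pairs with β-Klotho, had 20, 36, 32, 17 and 24 counts in the enzalutamide libraries, against 31, 3, 0, 8 and 16 counts in the DMSO libraries. The enzalutamide libraries were alike, whereas the DMSO libraries spread from 0 to a value above most enzalutamide libraries. Its log2 fold change of 1.14 had an SE of 0.64 (95% interval -0.12 to 2.39) and did not pass (edgeR adjusted p = 0.183). It did pass in limma-voom (adjusted p = 0.0336), in limma-trend with a pseudocount of 8 (adjusted p = 0.0496) and in edgeR without DMSO library 1, at a log2 fold change of 1.92 (adjusted p = 0.0341), so the call on Fgfr1 rests on the method and on 1 library. Ret, the receptor of the GDNF family, was listed at 20 counts in enzalutamide library 4 and 19 counts in DMSO library 3, and at 0 in the other 8 libraries.

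The ligands of these receptors were read from a list of 38 genes, of which 6 were expressed, 10 were tested, 1 rose and 2 fell. Calls made up 30% of the tested ligands, beside 37.8% of all genes tested. The median log2 fold change of the tested ligands was -0.04, beside 0.01 for all genes tested. Pdgfa, which encodes the ligand of the receptor from Pdgfra, rose together with it. It was at 16.1, 17.5, 18.1, 16 and 15.4 CPM in enzalutamide, against 8.67, 10.3, 10.5, 9.56 and 10.1 CPM in DMSO, with no overlap (log2 fold change 0.76, SE 0.0718, edgeR adjusted p = 2.91e-07). Among FGF genes the broad FGF receptor ligand Fgf1 fell, at 3.58, 4.64, 4.48, 4.8 and 3.12 CPM in enzalutamide, against 7.07, 7.72, 7.83, 7.58 and 6.77 CPM in DMSO (log2 fold change -0.84, SE 0.119, edgeR adjusted p = 2.52e-05). Fgf9 averaged 2.38 ± 0.296 CPM in enzalutamide and 1.81 ± 0.395 CPM in DMSO (SD, n = 5 each) and did not pass (edgeR adjusted p = 0.103).

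Ligand transcripts were also present for receptors at or near 0 counts. Hbegf, which encodes a heparin-binding ligand of EGFR and ERBB4, averaged 4.45 ± 0.541 CPM in enzalutamide and 5.51 ± 0.56 CPM in DMSO (SD, n = 5 each), a fall with a log2 fold change of -0.31 (edgeR adjusted p = 0.0395). The call on Hbegf was lost in 7 of 19 alternatives (adjusted p up to 0.118), among them each analysis without enzalutamide library 1, 3 or 5 or DMSO library 2 or 4. Egf averaged 6.14 ± 1.04 CPM in enzalutamide and 6.81 ± 1.54 CPM in DMSO, and Nrtn, the neurturin ligand of the RET complex, 2.06 ± 0.394 and 2.12 ± 0.391 CPM in the same order of groups, and neither passed (edgeR adjusted p = 0.478 and 0.879). In reverse, the stem cell factor gene Kitl had 0 counts in every library although Kit was expressed, and so had Hgf and Gdnf. Kitl, Hgf and Gdnf were named after their values were seen. Of the neuregulins that could bind ERBB3, Nrg2 averaged 0.214 ± 0.131 CPM in enzalutamide and 0.157 ± 0.149 CPM in DMSO, and Nrg1 totalled 8 counts in enzalutamide and 21 in DMSO. Neither passed: the edgeR adjusted p was 0.722 for Nrg2 and, without a filter, 0.574 for Nrg1.

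Fgf21, a stress-induced hormone that acts through FGF receptors together with β-Klotho, had too few counts for the test but separated the groups, and was named after its values were seen. It had 3, 14, 23, 11 and 15 counts in the enzalutamide libraries, against 0 counts in all 5 DMSO libraries. For the same reason as for Erbb2, no fold is given for Fgf21, and as it was chosen for this pattern, no p. Its co-receptor gene Klb was present at 29.3 ± 1.28 CPM in enzalutamide and 25.9 ± 1.79 CPM in DMSO (SD, n = 5 each), and rose by a log2 fold change of 0.18 (edgeR adjusted p = 0.016, and 0.0507 without DMSO library 1).

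Of 20 co-receptors and heparan sulfate carriers 11 were tested, 3 rose and 2 fell, with a median log2 fold change of 0.08. Calls were 45.5% of those tested, beside 37.8% of all genes tested. Besides Klb, the risers included Sdc2, a heparan sulfate syndecan that can present FGFs (log2 fold change 0.39, SE 0.0806, edgeR adjusted p = 0.000871). Gfra1, the GDNF-binding partner of RET, was at 10.9 ± 1.28 CPM in enzalutamide and 13.6 ± 1.41 CPM in DMSO (SD, n = 5 each), and fell with a log2 fold change of -0.32 (edgeR adjusted p = 0.00944). Nrp2, a neuropilin co-receptor of semaphorins and vascular growth factors, fell without overlap between the groups, to 32.9 ± 2.56 CPM in enzalutamide, against 51.1 ± 3.64 CPM in DMSO (log2 fold change -0.63, edgeR adjusted p = 2.66e-07). The proteoglycan genes Gpc1 (log2 fold change 0.11, adjusted p = 0.0771) and Sdc1 (0.00, adjusted p = 0.975) did not pass in edgeR. Gpc1 did pass in 3 of 19 alternatives (adjusted p down to 0.0189), total-count scaling among them (adjusted p = 0.0209).

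**Figure D3:**
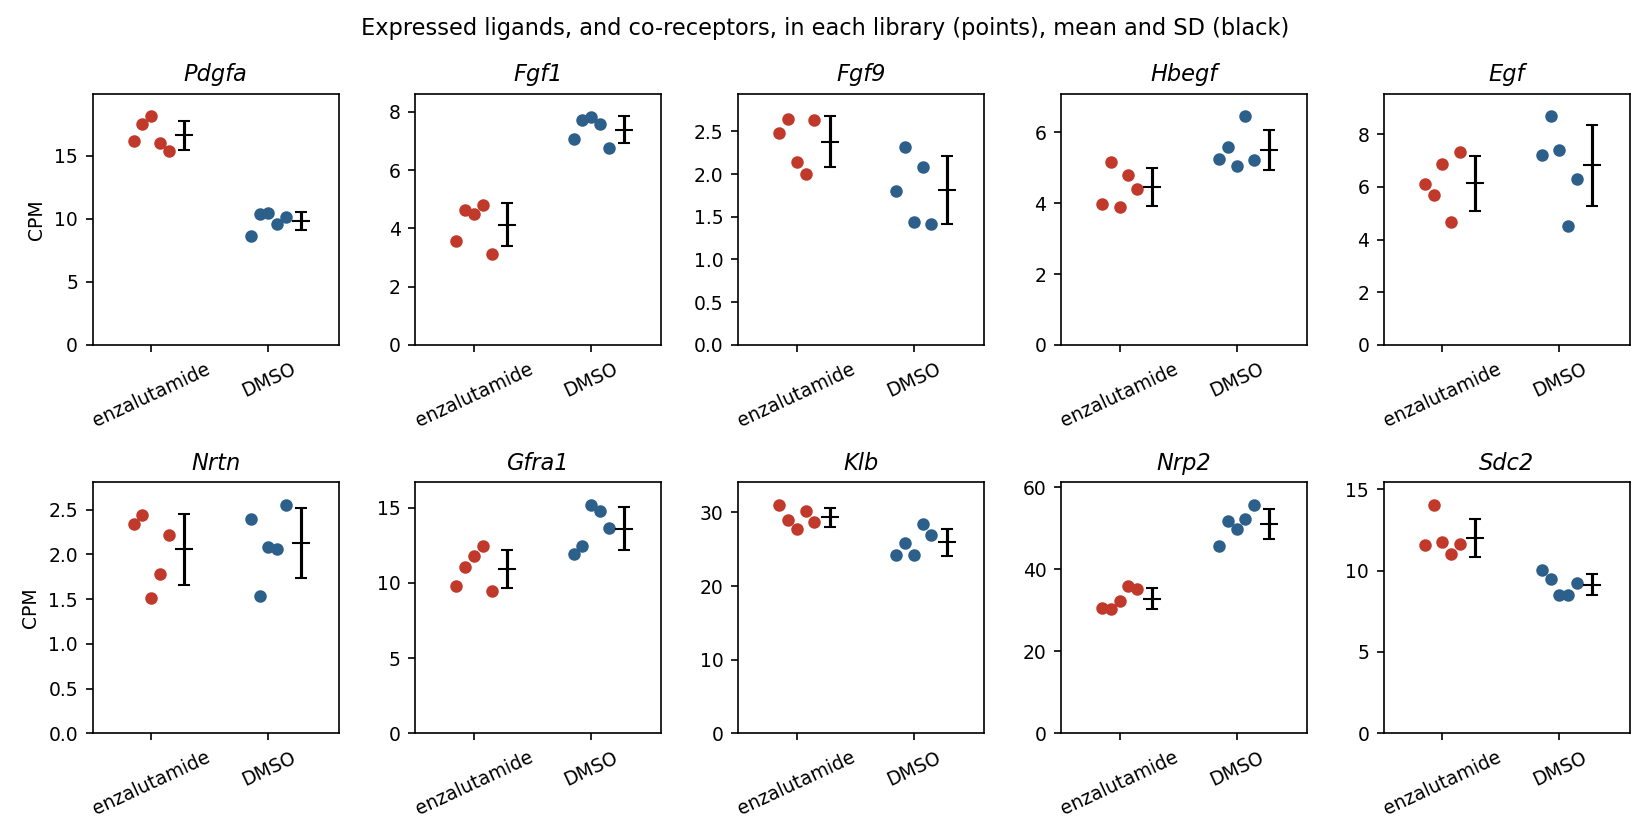
CPM of the 6 expressed ligands (Pdgfa, Fgf1, Fgf9, Hbegf, Egf, Nrtn) and of the 4 co-receptors with the lowest adjusted p (Gfra1, Klb, Nrp2, Sdc2) in each library, with the mean and SD in black, enzalutamide left and DMSO right; each panel has its own axis. Pdgfa and Sdc2 lie higher and Fgf1 and Nrp2 lower in every enzalutamide library.

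The line also expressed 15 of the 48 other receptor tyrosine kinases, of which 23 were tested, 7 rose and 2 fell (median log2 fold change 0.18). The share called was 39.1% of those tested, near the 37.8% of all genes tested. The collagen receptor gene Ddr2 changed more than Erbb3, Kit or Pdgfra, at 28.2 ± 1.63 CPM in enzalutamide and 10.2 ± 0.56 CPM in DMSO (log2 fold change 1.47, SE 0.0604, edgeR adjusted p = 6.23e-12). Ddr1, the related collagen receptor gene (log2 fold change 0.22), and Aatk, an atypical kinase of neurons (0.61), rose as well. Ntrk2, the receptor of brain-derived neurotrophic factor, was at 17.1 CPM per kilobase in enzalutamide and 22.1 in DMSO, above Erbb3 on that scale, and fell with a log2 fold change of -0.37 (SE 0.0293, edgeR adjusted p = 3.54e-08). Lmtk2 (-0.07) and the Wnt receptor gene Ryk (-0.03) did not pass (edgeR adjusted p = 0.254 and 0.569). Ntrk2 was not alone above Erbb3 per kilobase of exon. Of the kinases named here, Ddr1 (29.7 CPM per kilobase in enzalutamide and 25.5 in DMSO), Ryk (25.2 and 25.7) and Lmtk2 (15.7 and 16.4) also lay above it. Not every kinase above Erbb3 is named.

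Below the receptors, transcripts of the proteins that restrain or relay them changed in both directions. Of 22 receptor brakes 20 were tested, 4 rose and 3 fell, with a median log2 fold change of 0.00. That is 35% of those tested, near the 37.8% called over all genes, so it is not read as a property of brakes. Grb10, an adaptor that dampens insulin receptor signals, fell (log2 fold change -0.36), as did the tyrosine phosphatase gene Ptpn1 (-0.17), whereas the phosphatase gene Ptpn12 (0.32) and Socs5 (0.19), which lowers EGFR levels, rose. The brakes Sh3kbp1 (-0.06) and Hgs (-0.02) did not pass (edgeR adjusted p = 0.148 and 0.786), though Sh3kbp1 passed with 1 library left out (adjusted p = 0.0358). Of 27 adaptors 22 were tested, 7 rose and 3 fell (45.5% of those tested), with a median log2 fold change of 0.04. Pik3r1, the regulatory subunit of PI3 kinase that docks on KIT, PDGFRA and ERBB3, was at 195 ± 12.5 CPM in enzalutamide and 302 ± 10.4 CPM in DMSO (log2 fold change -0.63, SE 0.0408, edgeR adjusted p = 2.8e-09). Its paralog Pik3r2 rose (0.30), as did the adaptor Shc1 (0.32) and the Ras activator Sos2 (0.36). Irs2 (0.08) and the phosphatase Ptpn11 (0.05) did not pass (edgeR adjusted p = 0.0932 and 0.23, and with total-count scaling 0.0198 and 0.0378). Irs2 also passed with 1 library left out (edgeR adjusted p = 0.00806).

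Of 25 genes of the relay from Ras to ERK 22 were tested, 5 rose and 6 fell, with a median log2 fold change of 0.00. Calls were 50% of those tested, beside 37.8% of all genes tested. The ERK1 gene Mapk3 rose (log2 fold change 0.37, SE 0.0322, edgeR adjusted p = 1.19e-07), and the Ras relative Rap1b (-0.32), the scaffold Ksr2 (-0.33) and the Ras inhibitor Spred2 (-0.17) fell. Braf (0.10), a kinase that activates MEK, did not pass (edgeR adjusted p = 0.0694). It did pass in 4 of 19 alternatives (adjusted p down to 0.0121), total-count scaling among them (adjusted p = 0.0187). Among 16 transcripts commonly induced by ERK 14 were tested, 9 fell and 1 rose. The share called was 71.4% of those tested, beside 37.8% of all genes tested, and the median log2 fold change was -0.48. Since this list was chosen with earlier results of these data known, its share and median only describe it and are not independent support. The ERK phosphatase Dusp6 was at 3.24 ± 0.698 CPM in enzalutamide and 16.8 ± 1.26 CPM in DMSO (SD, n = 5 each), lower transcripts included Fos (log2 fold change -2.44) and Etv5 (-1.98), and Myc rose (2.71), while Phlda1 (0.01) and the receptor inhibitor Spry2 (0.00) did not pass (edgeR adjusted p = 0.937 and 0.997).

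**Figure D4:**
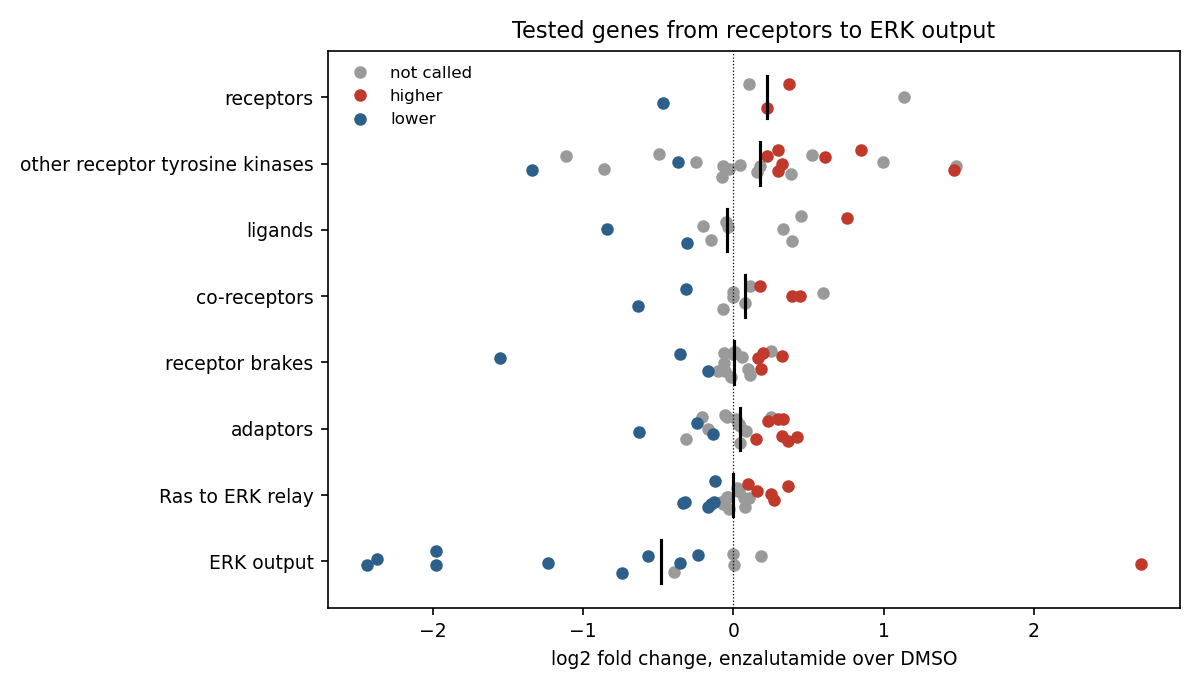
Log2 fold change, enzalutamide over DMSO, of every tested gene in 8 lists ordered from receptors to ERK output; red points were called higher, blue lower and grey not called, and black bars are list medians. The lists from receptors to the Ras to ERK relay have medians between -0.04 and 0.22 (0.22 over the 5 tested receptors), and the ERK output list has a median of -0.48. All 8 lists were chosen with earlier results of these data known.

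The tested genes whose log2 CPM followed Kit most closely over the 10 libraries were 2900026A02Rik, Smarca4 and Aoc3 (Pearson r = 0.96, 0.96 and 0.96), and those closest to Pdgfra were Inppl1, Pou6f1 and Antxr2 (0.99, 0.99 and 0.98). Over the 10 libraries r includes the difference between the groups. Within groups the values were 0.85, 0.85 and 0.83 for Kit and 0.95, 0.92 and 0.90 for Pdgfra. Kit was at 22.4 CPM in DMSO library 4 and between 16.5 and 17.1 CPM in the other DMSO libraries. The part of that library in the Kit values was not tested. The named genes had the highest r over the 10 libraries among 14156 tested genes, and the values describe likeness only. Between Pdgfra and Kit themselves r was -0.82 over the 10 libraries and -0.17 within groups.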

How the data were processed

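Polyadenylated RNA of αTC1 cells was sequenced in 10 libraries, which were grouped by their titles. HISAT2, StringTie, DESeq2 and the build mm10 appear in the submitters' processing notes, with neither version nor role. The authors deposited whole-number counts for 33212 genes, and the sources used here do not say whether these are read counts or StringTie estimates, or how strand and multiply mapped reads were treated. They also deposited a scaled signal for 20240 genes. In all 20039 genes matched by a unique symbol, the count was returned to within 0.01 when the signal was multiplied by the library's size factor (DESeq2). Each column matched 1 library, and 0 columns were left unused.

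The test across all genes was edgeR 4.0.16 in R 4.3.3 (filterByExpr, trimmed mean of M values, quasi-likelihood test without covariates, threshold 0.05 after Benjamini-Hochberg adjustment). SE is the absolute log2 fold change over the square root of F, and 95% intervals use a normal quantile. CPM use the scaled library sizes. Exon lengths and positions came from GENCODE M21 on GRCm38/mm10, which held 96.3% of identifiers. Promoter windows came from RefSeq, with entries for 7 of the 10 receptors.

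As a check for a library deposited more than once, pairs within a group were compared with counting error (chi-square over its degrees of freedom at least 9.23), and none was merged. This does not show that the cultures were separate. Named pathway genes are up to 4 called members of each list with the lowest adjusted p, up to 2 uncalled members with the highest mean CPM, and every expressed ligand. Nrg1, Nrg2, Nrg4, Fgf22, Fgf21, Kitl, Hgf and Gdnf were added after their values were seen. 1 gene under this rule is not reported here. For the 2 receptors with the lowest adjusted p the 3 most similar genes are given. The receptors and lists were chosen with earlier results of these data known. Alternatives were relative log expression and total-count scaling, no filter, a filter at a mean of 1 CPM, a block for the replicate number, DESeq2 1.42.0, limma 3.58.1 (voom, and trend on the log2 of the scaled signal with a pseudocount of 1 or 8), and leaving out each library. The edgeR analysis was also tested on simulated data.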

Additional observations from a re-analysis of the deposited data

Results flagged for a closer look

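In 109 groups of 5 libraries with unequal values, 1 library stood far from the other 4 in 10. The limit used gives about 1 in 20 by chance only for values with a normal spread. A group with 0 in the other 4 libraries, as for Erbb4, Met and Ret, passes it by construction. The 10 flags are therefore not read as an excess over chance. Kit was at 22.4 CPM in DMSO library 4 and between 16.5 and 17.1 CPM in the other DMSO libraries. Ret was at 0.300063 CPM in enzalutamide library 4 and 0.282 CPM in DMSO library 3, and at 0 in the other libraries of each group. Erbb4 was at 0.106 CPM in DMSO library 5 and 0 in the other DMSO libraries. Met was at 0.0600126 CPM in enzalutamide library 4 and 0 in the other enzalutamide libraries. The remaining flags were in enzalutamide: Ryk at 105.9 CPM in library 5 (others 115.2 to 118.7), Sdc2 at 14 CPM in library 2 (others 11 to 11.8), Grb10 at 697 CPM in library 2 (others 754 to 774), Sh3kbp1 at 142 CPM in library 5 (others 132 to 133) and Myc at 6.02 CPM in library 1 (others 3.35 to 3.93).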

How the results depend on the processing

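The number of receptors called was 2 to 3 higher and 1 lower over all alternatives, the third being Fgfr1, and 4 receptors counted as expressed at every limit tried. Over all genes, leaving out 1 library gave 2446 to 2669 higher and 2433 to 2685 lower, and total-count scaling gave 3285 higher and 2131 lower. With the replicate number as a block 2659 genes were higher and 2637 lower, with 2 receptors higher and 1 lower. For pairing, each gene's group mean was subtracted from its log2 CPM, and the remaining deviations were correlated between libraries. These deviations correlated between -0.00849 and 0.0451 in same-numbered libraries. Only 2 of 5 enzalutamide libraries correlated best with their own number, so the numbers were not taken as pairs.

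Some list counts moved further. Among other receptor tyrosine kinases 4 were lower without a filter and 1 with a mean CPM of at least 1 (1 to 3 with 1 library left out, the lowest without DMSO library 4). Ligands higher numbered 2 without a filter and 1 to 2 with 1 library left out. The added ligand was Fgf21, which passes a filter only through the enzalutamide libraries, so this gain supports nothing. Ligands lower numbered 1 with total-count scaling and 1 without a filter (1 to 2 with 1 library left out). Higher members of the Ras to ERK relay numbered 3 to 7 with 1 library left out, the lowest without DMSO library 3. Over all alternatives higher adaptors numbered 5 to 9 and higher receptor brakes 3 to 6. For the 50 named genes tested, 924 values kept direction and call, 14 gained a call, 8 lost it, and none that was called in either analysis changed sign. The permutation p for library totals was 0.135 to 0.516 with 1 library left out. The cause of these shifts was not tested, apart from the filter. Egfr, Erbb2, Erbb4, Met and Ret had at most 20 counts in any library, and no difference between groups is read from them.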

Other observations

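Other ligand genes were present at low level. Fgf22, which encodes an FGF of synapse formation, averaged 0.761 ± 0.33 CPM in enzalutamide and 0.877 ± 0.207 CPM in DMSO (SD, n = 5 each, edgeR adjusted p = 0.663). Nrg4, a neuregulin that binds ERBB4, averaged 0.433 ± 0.0965 CPM in enzalutamide and 0.343 ± 0.119 CPM in DMSO (edgeR adjusted p = 0.524). Of the summed level of the 10 receptors per kilobase of exon, Erbb3 made up 68.1% to 70.4% in the enzalutamide libraries and 60.3% to 66.5% in the DMSO libraries, and Kit 13.6% to 17% in enzalutamide and 20.8% to 27.2% in DMSO. The ranges did not overlap for either gene. As the shares are parts of the same sum, a lower Kit level raises the share of Erbb3. The CPM of Erbb3 itself overlapped between the groups, so its share is not a separate result.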
